A study of Mus musculus with 10 samples.

Results

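The genes described here are 9 that are best known from cartilage and that also belong to the matrix of heart valves and of the fibrous annulus to which the valves are anchored: Ucma, Comp, Chad, Cilp, Cilp2, Sox9, Acan, Hapln1 and Cytl1. They were picked by name, with earlier results of these arrays known, and their 12 probes were found through the RefSeq accession that the scanner files give for each probe. They are 9 of the 22907 named genes on the array. The tissue was the heart of C57BL/6N mice, separated into the right ventricle (RV, 4 arrays), the left ventricle (LV, 3 arrays) and the ventricular septum (3 arrays). Neither age nor sex nor any treatment is named in the labels, nor whether a sample held the tissue of more than 1 animal, so the spread between arrays of a region may be partly technical. Each piece was powdered whole, and none of the 10 arrays sampled a valve, the annulus or the root of a great vessel on its own. The question was how far these genes differed in level between the pieces and from array to array.

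Cartilage owes its stiffness to fibrils of type II collagen and to aggregates of aggrecan on hyaluronan, and chondrocytes make both under the transcription factor Sox9. The same programme runs in part in the heart: Sox9 is needed for the cells that build the valves, and the mature leaflets and the annulus hold aggrecan, link protein and collagen-binding glycoproteins. Gla proteins, for their part, keep such matrix from calcifying.

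Levels are given as the log2 of the fluorescence signal minus the 75th percentile of that array, and a step of 1 is a doubling. Levels of different probes were not set against each other. A probe entered the fit when all arrays of 1 or more regions had a signal well above background, which held for 30234 of 56605 probes. Of the 9 genes, 7 passed this filter (Ucma, Comp, Chad, Cilp, Cilp2, Sox9 and Cytl1), whereas Acan and Hapln1 did not. Because the genes were chosen with their levels known, their differences are given as descriptions without p-values.

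The label of a cartilage programme was only in part borne out by markers of chondrocytes. Col2a1, which encodes the type II collagen chain, and Cnmd, which encodes chondromodulin, were well above background on all 10 arrays, as was the type IX collagen gene Col9a1. In contrast, Matn1 and Matn3, which encode cartilage matrilins, were well above background on none. The arrays were hybridised on 2 slides, the first with replicates 1 and 2 of each region and the second with RV arrays 3 and 4, LV array 3 and Septum array 3. Between 53.7% and 64.0% of the spots on an array were well above background and no spot was saturated. Septum arrays 1 and 2 had the highest means of the atrial markers, 3.10 and 1.17 above the mean over all arrays, compared with -2.02 to 0.61 on the other 8 arrays. Nppa did not follow this on Septum array 2, where its log2 level of 6.23 was below that of Septum array 3 (6.45) and of the LV arrays (6.48 to 6.79).

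Of the genes tested, Ucma had no LV array above background. It encodes a small protein rich in vitamin K-dependent Gla residues that is made in the upper zone of growth plate cartilage and holds back mineralisation. The log2 level of Ucma was -1.63, -1.62, -0.19 and -0.77 in RV arrays 1 to 4, and -1.54, -2.88 and -1.38 in the Septum arrays. In the LV arrays the probe was not well above background on any of the 3, with log2 values of -6.48, -5.44 and -4.49. All RV and Septum arrays thus lay above all LV arrays. Since the LV signal is only a bound, Ucma was at least 6.53-fold higher in the RV and at least 3.54-fold higher in the Septum than in the LV, taking for each LV array the higher of the probe's own value and the lowest level that counted as well above background. These bounds hold for the background correction of the scanner software. With normexp background correction the log2 differences from the LV were smaller, at 2.02 for the RV and 1.38 for the Septum. A second Ucma probe, for another transcript accession, gave bounds of 3.71-fold and 2.10-fold. RV and Septum overlapped, and their log2 means differed by 0.88 (SE 0.55). In whole pieces, fewer cells of a type and less RNA per cell cannot be told apart, for Ucma as for every gene here.

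Comp, which encodes the cartilage oligomeric matrix protein, a collagen-binding member of the thrombospondin family, was likewise lowest in the LV arrays. Its log2 level was 1.91, 1.52, 3.96 and 2.97 in the RV arrays, -0.88, -0.53 and 0.45 in the LV arrays, and 2.90, 1.78 and 3.43 in the Septum arrays. The lowest RV or Septum array stood above the highest LV array. The log2 mean was 2.59 ± 1.10 (SD, n = 4) in the RV, -0.32 ± 0.69 (SD, n = 3) in the LV and 2.70 ± 0.84 (SD, n = 3) in the Septum, which made Comp 7.52-fold higher in the RV and 8.13-fold higher in the Septum than in the LV. Between RV and Septum the log2 means differed by -0.11 (SE 0.61), less than the spread within either region. RV exceeded LV by 2.42 on the first slide and 3.01 on the second.

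Chad encodes chondroadherin, a leucine-rich repeat protein that ties collagen to cell-surface integrins. Its log2 level was -1.04, -1.55, 1.86 and 0.44 in the RV arrays, -2.74, -2.14 and -1.80 in the LV arrays, and 0.71, -0.66 and 1.38 in the Septum arrays. No array of the RV or the Septum fell within the LV range, although RV array 2 came close to LV array 3. The RV exceeded the LV by 2.16 (SE 0.78), with 1.15 on the first slide and 2.95 on the second. The Septum exceeded the LV by 2.70 (SE 0.83), and RV and Septum overlapped, with a difference of -0.55 (SE 0.78).

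The paralogues Cilp and Cilp2 parted. Both encode proteins of the intermediate layer of cartilage, and Cilp is also made by cardiac fibroblasts, where it holds back TGF-β signalling. The log2 level of Cilp2 was -2.49, -2.85, -1.07 and -2.12 in the RV arrays, -4.13, -4.20 and -3.69 in the LV arrays, of which only LV array 1 was well above background, and -1.14, -2.87 and -1.75 in the Septum arrays. Again the RV and Septum arrays lay above every LV array, by 1.87 (SE 0.47) and 2.08 (SE 0.50) on the log2 scale, sizes that rest in part on LV signals at background. For Cilp the regions overlapped in each of the 3 comparisons. Its log2 level was -1.10, -0.88, 1.41 and 0.79 in the RV arrays, -1.08, -0.45 and 0.12 in the LV arrays, and 0.50, 0.10 and 1.48 in the Septum arrays. The difference of Cilp between RV and LV was 0.53 (SE 0.63) over all arrays and changed sign between the slides, with -0.23 on the first and 0.98 on the second.

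Cytl1, which encodes a small secreted cytokine-like protein of chondrocytes, varied least among the RV arrays. Its log2 level was 3.87, 3.95, 3.88 and 3.52 in the RV arrays, 2.32, 2.04 and 1.32 in the LV arrays, and 3.66, 2.71 and 3.33 in the Septum arrays. The SD among the RV arrays was 0.19, compared with 0.71 to 1.54 for Ucma, Comp, Chad, Cilp and Cilp2. The RV exceeded the LV by 1.91 (SE 0.27), a fold of 3.76, and the Septum exceeded the LV by 1.34 (SE 0.29). RV and Septum overlapped by Septum array 1, with a difference of 0.57 (SE 0.27). LV array 3 was the lowest LV array for Cytl1 and the highest for Comp, Chad and Cilp.

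**Figure D1:**
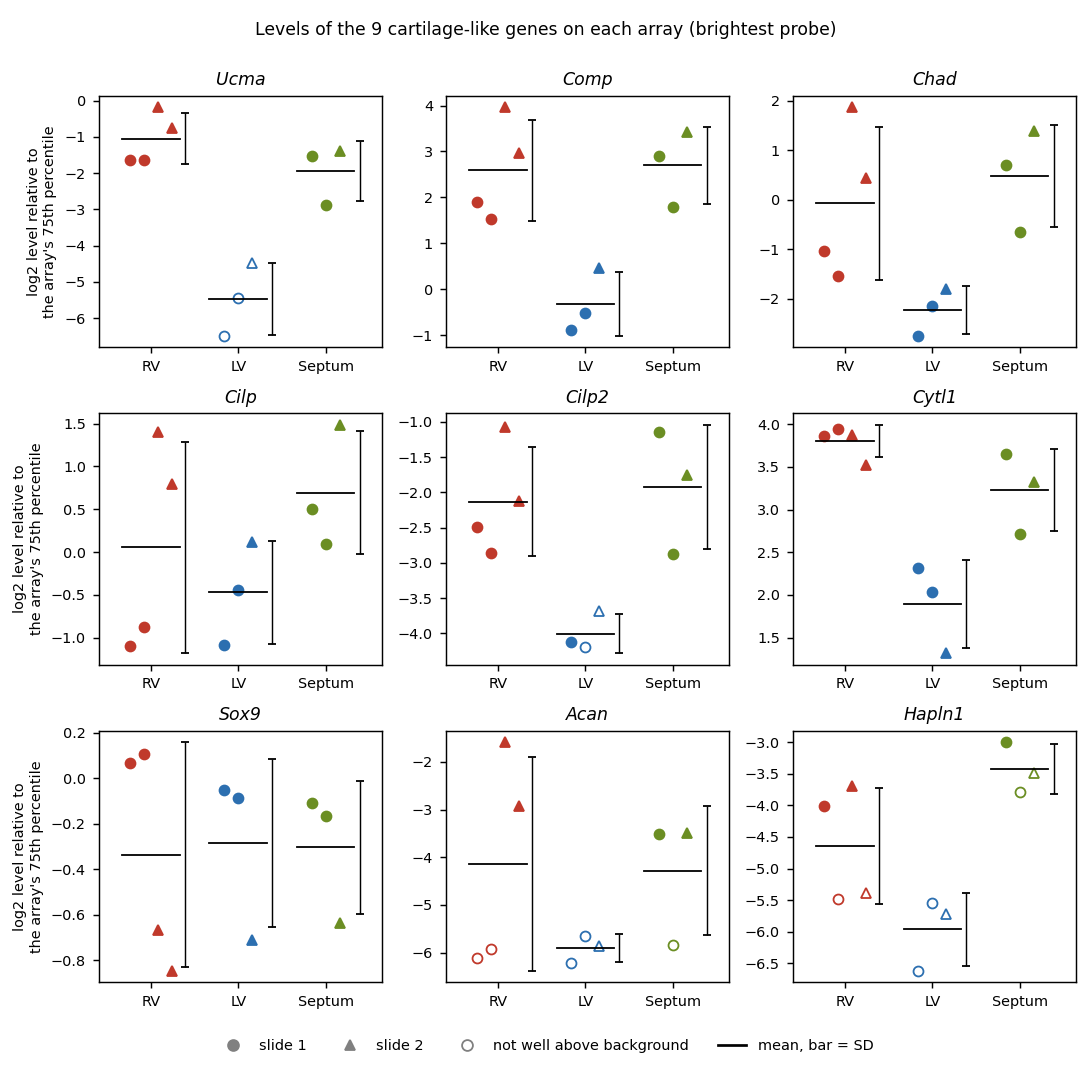
Log2 level of each gene relative to the 75th percentile of its array (vertical axis) in the 4 RV, 3 LV and 3 Septum arrays, with circles for the first slide, triangles for the second and open symbols for a signal not well above background. Lines are means and bars the SD. For Ucma, Comp, Chad, Cilp2 and Cytl1 all RV and Septum arrays lie above all LV arrays, while the Sox9 values divide by slide.

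The large proteoglycan network was close to the limit of detection. Acan encodes aggrecan, the main proteoglycan of cartilage and a component of valve leaflets. Its probe was well above background on RV arrays 3 and 4, with log2 levels of -1.59 and -2.92, and on Septum arrays 1 and 3, with -3.51 and -3.50. On RV arrays 1 and 2, on Septum array 2 and on all LV arrays it was not, with values between -6.22 and -5.64. The RV arrays thus fell into a pair with and a pair without measurable Acan, along the division of the slides, and no bound on the difference to the LV exceeded 1. Hapln1 encodes the link protein that locks aggrecan onto hyaluronan. Both of its probes were well above background on RV arrays 1 and 3 and Septum array 1 alone, where the log2 level of the brighter probe was -4.01, -3.70 and -3.00. In the LV neither Hapln1 probe was well above background on any array. With so few arrays measured, no fold is given for Hapln1.

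The 2 probes of Sox9, the regulator of the chondrocyte programme, did not give the same picture. With the brighter probe the log2 level was 0.07, 0.11, -0.67 and -0.85 in the RV arrays, -0.05, -0.09 and -0.71 in the LV arrays, and -0.11, -0.17 and -0.64 in the Septum arrays. Every array of the first slide was thus higher than every array of the second, and the regions differed by -0.05 (RV and LV, SE 0.28), -0.03 (RV and Septum, SE 0.28) and -0.02 (Septum and LV, SE 0.29). With the dimmer probe the log2 level was -2.64, -2.88, -1.88 and -2.22 in the RV arrays, -3.74, -3.85 and -3.27 in the LV arrays, where LV array 2 was not well above background, and -2.35, -3.10 and -2.49 in the Septum arrays. By this probe all RV and Septum arrays lay above all LV arrays, by 1.21 (SE 0.27) and 0.97 (SE 0.29). The dimmer probe had its highest RV array and its lowest Septum array in common with Ucma, Comp, Chad and Cilp2. Both probes carry the same Sox9 transcript accession, and which of them follows the transcript was not tested. The level of Sox9 in these regions is therefore not settled by the arrays.

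**Figure D2:**
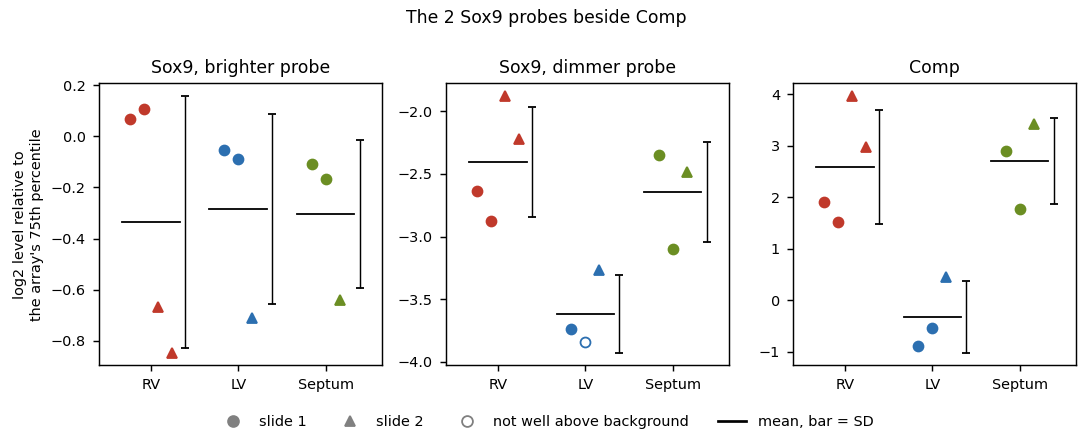
Log2 level relative to the 75th percentile of the array (vertical axis) for the brighter Sox9 probe, the dimmer Sox9 probe and Comp, by region, with circles for the first slide, triangles for the second and an open symbol for a signal not well above background; lines are means and bars the SD. The brighter probe divides the arrays by slide, from -0.17 to 0.11 on the first and from -0.85 to -0.64 on the second, and the dimmer probe places the LV arrays lowest, as Comp does.

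Counted over the 7 genes tested, each by its brighter probe, 6 had a higher mean in the RV than in the LV and 5 did so without overlap of the arrays, compared with 8.09% of all probes tested that were higher and 11.0% that were lower in the RV without overlap. In the limma fit across all probes, 3 of them (Ucma, Comp and Cytl1) had an adjusted p below 0.05, compared with 3.86% of all probes (2.31% higher and 1.55% lower in the RV). Ucma passed the filter through the RV and Septum alone, so a difference from the LV was built in, and its p was computed against background signals. Cilp2, among the 5 without overlap, also passed through the RV and Septum alone, with 1 of 3 LV arrays well above background. Its difference from the LV was thus in part built in too. The median difference of the 7 genes was 1.91, and that of all probes tested was -0.037. Between Septum and LV, 6 of the 7 had a higher mean in the Septum and 5 did not overlap, compared with 3.54% of probes that were higher and 3.45% that were lower in the Septum. None of the 7 was called there in limma, where none of the probes was. Without Septum arrays 1 and 2, the 1 Septum array that remains was above every LV array for 6 of the 7 genes, which describes that array only. Between RV and Septum, 2 of the 7 had a higher mean in the RV and all 7 overlapped, where 5.85% of probes were higher and 7.81% lower in the RV without overlap. In limma none of the 7 was called there, against 2.08% of probes (1.20% higher and 0.873% lower in the RV), and the median difference was -0.11. The genes were chosen with these values known, so nothing is read from the counts, those of the limma calls included. The comparisons with the LV share its arrays.

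Array by array, most of these genes rose and fell together. Over the 9 probes tested, RV array 3 was the highest RV array for 7, the exceptions being the brighter Sox9 probe and Cytl1. Septum array 2 was the lowest Septum array for 8 of the 9, the exception being the brighter Sox9 probe. Among the LV arrays, array 3 was the highest for Comp, Chad and Cilp, while for Ucma and Cilp2 the LV signal was mostly at background and gives no order. With the mean of each region removed, the correlation over the 10 arrays between any pair of Ucma, Comp, Chad, Cilp and Cilp2 lay between 0.71 and 0.97 by their brighter probes, the highest being that of Comp and Chad; the LV values of Ucma and most of those of Cilp2 in it are background signals. The correlation of Cytl1 with each of these 5 lay between -0.23 and 0.27. These are descriptions over arrays that share slides and, by number, possibly hearts.

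Within the RV and within the Septum, but not within the LV, the arrays high in the cartilage-like genes were in part those high in smooth muscle transcripts. The mean of the 7 genes, each taken relative to its mean over the 10 arrays, was 0.12, -0.01, 1.49 and 0.75 in RV arrays 1 to 4, -1.69 to -1.08 in the LV arrays, and 0.89, -0.11 and 1.01 in the Septum arrays. The mean of the smooth muscle markers Myh11, Acta2, Tagln and Cnn1, all 4 of them measured, was -0.05, 0.24, 1.45 and 0.94 in the RV arrays, -0.68 to -0.41 in the LV arrays, and -0.06, -0.91 and 0.12 in the Septum arrays. Both means were thus highest on RV arrays 3 and 4 among the RV arrays and lowest on array 2 among the Septum arrays. Among the LV arrays, array 1 had the lowest mean of the 7 genes (-1.69) and the highest of the smooth muscle markers (-0.41), though Ucma and most of Cilp2 were at background there. The smooth muscle markers did not run alike, since Acta2 ran from 6.29 to 6.64 in the RV arrays and from 6.68 to 6.96 in the LV arrays while Cnn1 ran from 2.57 to 5.12 and from 1.29 to 1.77. The 4 chondrocyte markers measured, of 6, had a mean of -0.03 to 0.38 in the RV, -0.43 to -0.16 in the LV and -0.05 to 0.28 in the Septum arrays. Col9a1 ran the other way, with a log2 mean of -3.55 in the RV and -3.20 in the LV and its lowest levels on RV arrays 3 and 4, at -4.08 and -3.93. The 6 fibroblast markers had a mean of 0.09 to 0.48 in the RV, -0.46 to -0.20 in the LV and -0.24 to 0.09 in the Septum arrays. The means of the mesothelium and of the adipocyte markers, 6 each and all measured, were also higher in every RV array than in every LV array, which did not hold for single markers such as Msln, Wt1 and Lep. The adipocyte mean ran from -2.28 to -1.15 in the LV and from -0.84 to 0.58 in the Septum arrays. The mean of the 5 conduction system markers ran from -0.14 to 0.15 in the RV and from -0.43 to -0.23 in the LV. In the Septum arrays it ran from 0.09 to 0.87. The mean of the 5 macrophage markers ran from 0.10 to 0.30 in the RV and from -0.39 to 0.09 in the LV. For Tbx3 and Cd68 alone, of these 2 lists, RV and LV arrays overlapped. The Septum arrays had the lowest mesothelium means, at -3.16 to -0.74. The 4 atrial markers measured, of 5, with Bmp10 well above background on no array, had their highest means on Septum arrays 1 and 2, of which array 2 had the lowest Septum mean of the cartilage-like genes. The part of these cell types in the differences of the cartilage-like genes was not tested.

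**Figure D3:**
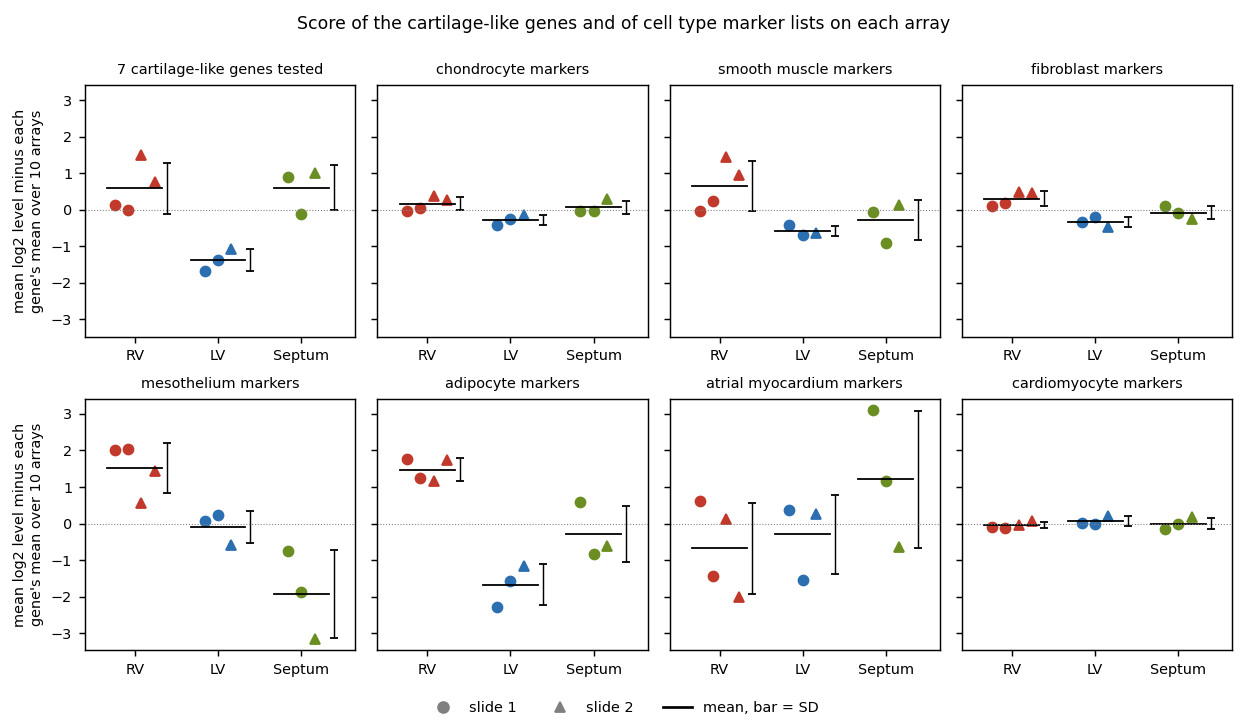
Mean log2 level of the 7 cartilage-like genes tested and of 7 lists of cell type markers, each gene taken relative to its mean over the 10 arrays (vertical axis), by region; circles are arrays of the first slide and triangles of the second, lines are means and bars the SD. The cartilage-like genes are lowest in the 3 LV arrays, at -1.69 to -1.08, and RV arrays 3 and 4 are the highest RV arrays for both these genes and the smooth muscle markers.

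Among 14617 genes compared over the 10 arrays, those whose levels followed each cartilage-like gene most closely were, for Ucma, Ecrg4 (Pearson's r = 0.974), Pdgfrl (0.967) and Dkk3 (0.966), and for Comp, Col8a2 (0.979), Prelp (0.977) and Ecrg4 (0.976). Col8a2 encodes a short-chain collagen and Prelp a leucine-rich repeat proteoglycan. Chad was followed by Frzb (0.988), Prelp (0.964) and Comp (0.961). Frzb encodes a secreted Wnt antagonist first known from cartilage. Cilp2 was followed by Itih5 (0.972), Ccdc166 (0.965) and Comp (0.962), and Cilp by Adamtsl2 (0.970) and Chsy1 (0.953). The genes closest to Cytl1 were 6330403K07Rik (0.983), Greb1l (0.979) and Mgp (0.977), none of which was among those of the other genes. The brighter Sox9 probe followed Gm31175 (0.995), Lsm5 (0.993) and Serpina1b (0.993), genes that differed little between regions, with means of 0.91, 0.97 and 0.95 for Lsm5 in RV, LV and Septum. For genes that were low in all LV arrays, such a correlation rests in large part on the step between the LV and the other arrays.

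Since 5 of the genes tested were lowest in the LV arrays, the 250 bases before the gene starts were read for short motifs. The RefSeq promoter table (build GRCm38.p6) held 7 of the 9 genes, Ucma, Chad, Cilp, Cilp2, Acan, Hapln1 and Cytl1. On either strand, the core sites of Sox-type factors, AACAAT and ACAAAG, were searched together with TATAAA, the core of the TATA box, none of which contains another. AACAAT or ACAAAG was found in 1 of the 7, Cilp2, and in 24.0% of all 32851 promoters of the table. TATAAA was found in 1 of the 7, Chad, with its first base 28 bases before the start, and in 12.4% of all promoters. Of the 5 genes lowest in the LV, the table holds 4. Their windows are shown 5′ to 3′ on the strand of the gene, with a match in capitals. They lie at chr2:4975872-4976121 on the plus strand (Ucma), chr11:94564797-94565046 on the plus strand (Chad), chr8:69887393-69887642 on the minus strand (Cilp2) and chr5:37735269-37735518 on the plus strand (Cytl1). The match in Cilp2 begins 241 bases before the start.
Ucma: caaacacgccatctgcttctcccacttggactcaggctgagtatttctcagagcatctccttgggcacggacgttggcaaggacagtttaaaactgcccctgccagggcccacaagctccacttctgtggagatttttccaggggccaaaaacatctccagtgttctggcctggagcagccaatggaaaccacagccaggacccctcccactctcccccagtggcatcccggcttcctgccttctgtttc
Chad: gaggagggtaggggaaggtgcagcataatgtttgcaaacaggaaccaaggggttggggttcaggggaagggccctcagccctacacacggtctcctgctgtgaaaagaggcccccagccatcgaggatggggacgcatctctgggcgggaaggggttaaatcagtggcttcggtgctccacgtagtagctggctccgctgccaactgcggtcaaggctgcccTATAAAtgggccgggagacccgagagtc
Cilp2: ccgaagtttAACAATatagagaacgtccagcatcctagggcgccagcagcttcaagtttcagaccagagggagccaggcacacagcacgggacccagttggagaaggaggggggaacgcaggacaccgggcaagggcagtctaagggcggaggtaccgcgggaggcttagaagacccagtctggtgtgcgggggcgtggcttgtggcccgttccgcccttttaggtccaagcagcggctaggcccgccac
Cytl1: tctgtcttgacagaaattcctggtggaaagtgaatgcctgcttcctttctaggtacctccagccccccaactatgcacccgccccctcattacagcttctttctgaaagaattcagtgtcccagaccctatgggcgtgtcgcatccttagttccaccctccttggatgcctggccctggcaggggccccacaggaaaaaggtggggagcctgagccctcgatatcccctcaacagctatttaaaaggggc
The windows of Ucma and Cytl1 held none of the 3 motifs, although both genes were higher in all RV arrays than in all LV arrays. A match describes the letters only.

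To see how far other genes of cartilage and valve matrix were also lowest in the LV, 73 further genes were drawn up in 7 lists. The lists were likewise made with earlier results known, and 47 of the 73 genes passed the filter. In the RV, 12 of the 47 were higher than in the LV and none was lower (limma, Benjamini-Hochberg adjusted p below 0.05), that is 25.5%, compared with 2.31% of all probes tested that were higher. Of the 40 genes well above background on every array, 11 were higher. Epyc, among the 12, passed the filter through the RV and Septum alone. Each gene was read by its brightest probe, whereas the 2.31% covers all probes tested. Because the lists were made with earlier results known, the 2 shares are descriptions and nothing is read from the excess. The mean was higher in the RV for 38 of the 47, with a median difference of 0.37 against -0.037 for all probes. The number called varied with the arrays: it was 5 without LV array 1, 6 without LV array 2 and 6 without RV array 4. With slide as a fixed block 20 were called, of which Ank was the gene lower in the RV, and within the first and the second slide alone 7 and 5 were called, with Vit and Wif1 in both and Scx lower in the RV on the first. No share of all probes is given for the 40 genes or for these alternatives, so their counts cannot be set against the whole array.

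Of the 10 other cartilage matrix genes tested (of 15), 5 were higher in the RV. Fmod, which encodes the collagen-binding proteoglycan fibromodulin, had log2 levels of 0.02, 0.04, 1.34 and 0.60 in the RV arrays, -1.89, -1.91 and -1.97 in the LV arrays, and -0.04, -0.96 and 0.38 in the Septum arrays. It was 5.34-fold higher in the RV than in the LV (adjusted p = 0.00891, limma). Vit, which encodes the matrix protein vitrin, was 3.57-fold higher in the RV than in the LV (adjusted p = 0.00117, limma), and its log2 level ran from -0.02 to 0.12 in the RV, from -1.81 to -1.68 in the LV and from -0.96 to -0.26 in the Septum arrays. Cnmd rose less, by 0.88 (SE 0.10, adjusted p = 0.00307, limma), and Omd, which encodes osteomodulin, by 1.15 (SE 0.22, adjusted p = 0.0240, limma). Epyc, which encodes the growth plate proteoglycan epiphycan, was well above background on all RV and Septum arrays and on no LV array, and was at least 2.71-fold higher in the RV (adjusted p = 0.0126, limma). Epyc passed the filter through the RV and Septum alone, so it had to differ from the LV, and its p was computed against background signals. The other 5 were Matn2, Matn4, Chadl, Prg4 and Mia, with adjusted p from 0.116 (Prg4) to 0.975 (Matn4, limma). Prg4 was called higher in the RV with slide as a block, with a random replicate block and within the second slide.

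The fibril-forming side of cartilage did not pass the test. None of the 5 cartilage collagens tested (of 8) was called between RV and LV, although Col2a1 had a mean difference of 1.12 (SE 0.41, adjusted p = 0.171, limma). Its log2 level was -1.43, -1.13, 0.17 and 0.23 in the RV arrays and -2.10 to -1.38 in the LV arrays, which overlap. It was called higher in the RV with slide as a fixed or random block, with a random replicate block and within the second slide alone. Col2a1 was highest on the same 2 RV arrays as Chad, Acan and the smooth muscle markers. In the aggrecan and hyaluronan list 1 of 7 tested genes was higher in the RV, namely Hyal1, a hyaluronidase, by 0.68 (SE 0.14, adjusted p = 0.0306, limma). Vcan, which encodes versican, the large proteoglycan of valves, differed by 0.03 (adjusted p = 0.869, limma). Cd44, which encodes the hyaluronan receptor, had an adjusted p of 0.0563 in limma and was called higher in the RV with slide or the replicate number as a block.

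Of the 4 thrombospondins, the family of Comp, Thbs1 and Thbs3 were higher in the RV than in the LV, by 1.93 (SE 0.42, adjusted p = 0.0396, limma) and by 0.82 (SE 0.18, adjusted p = 0.0437, limma). Thbs2 and Thbs4 differed by 0.20 and 0.27 (adjusted p = 0.590 and 0.707, limma). A second Thbs3 probe did not pass the test (adjusted p = 0.0520, limma). Of the 6 genes tested that act in mineralisation (of 9), Mgp, the Gla protein that keeps vessel walls and cartilage from calcifying, was higher in the RV by 0.92 (SE 0.14, adjusted p = 0.00858, limma), with log2 levels of 7.10 to 7.35 in the RV, 5.97 to 6.47 in the LV and 6.85 to 7.18 in the Septum arrays. Mgp and Ucma both encode Gla proteins that hold back mineralisation, and for both the LV arrays were lowest.

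Among 8 chondrogenic regulators tested (of 12), Pthlh, the signal that keeps growth plate chondrocytes from maturing, was 2.33-fold higher in the RV (adjusted p = 0.0218, limma), and Trps1, a repressor that acts in chondrocytes, was 1.54-fold higher (adjusted p = 0.0173, limma). A second Trps1 probe did not pass the test (adjusted p = 0.133, limma). Sox5 and Sox6, the partners of Sox9 in cartilage, differed by 0.02 and -0.07 between RV and LV (adjusted p = 0.940 and 0.685, limma). Of 7 valve and tendon-like genes tested (of 11), Wif1 was higher in the RV than in the LV. Wif1 encodes a secreted Wnt inhibitor, and its log2 level was 1.73, 1.41, 2.41 and 1.59 in the RV arrays, -1.26, -1.90 and -1.51 in the LV arrays, and 1.41, 0.30 and 1.27 in the Septum arrays. The fold between RV and LV was 10.1 (adjusted p = 0.00236, limma). Scx, the transcription factor of tendons, had a mean lower in the RV than in the LV by -0.59 and than in the Septum by -1.04 (adjusted p = 0.198 and 0.0602, limma). It was called lower in the RV than in the Septum with slide as a fixed or random block and with a random replicate block, and lower than in both other regions within the first slide alone. Eln, the elastin gene, had a mean 1.47 higher in the RV than in the LV (adjusted p = 0.0759, limma). It was called higher with slide as a fixed or random block and with a random replicate block. With slide or the replicate block as random, Eln was also called higher in the RV than in the Septum.

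**Figure D4:**
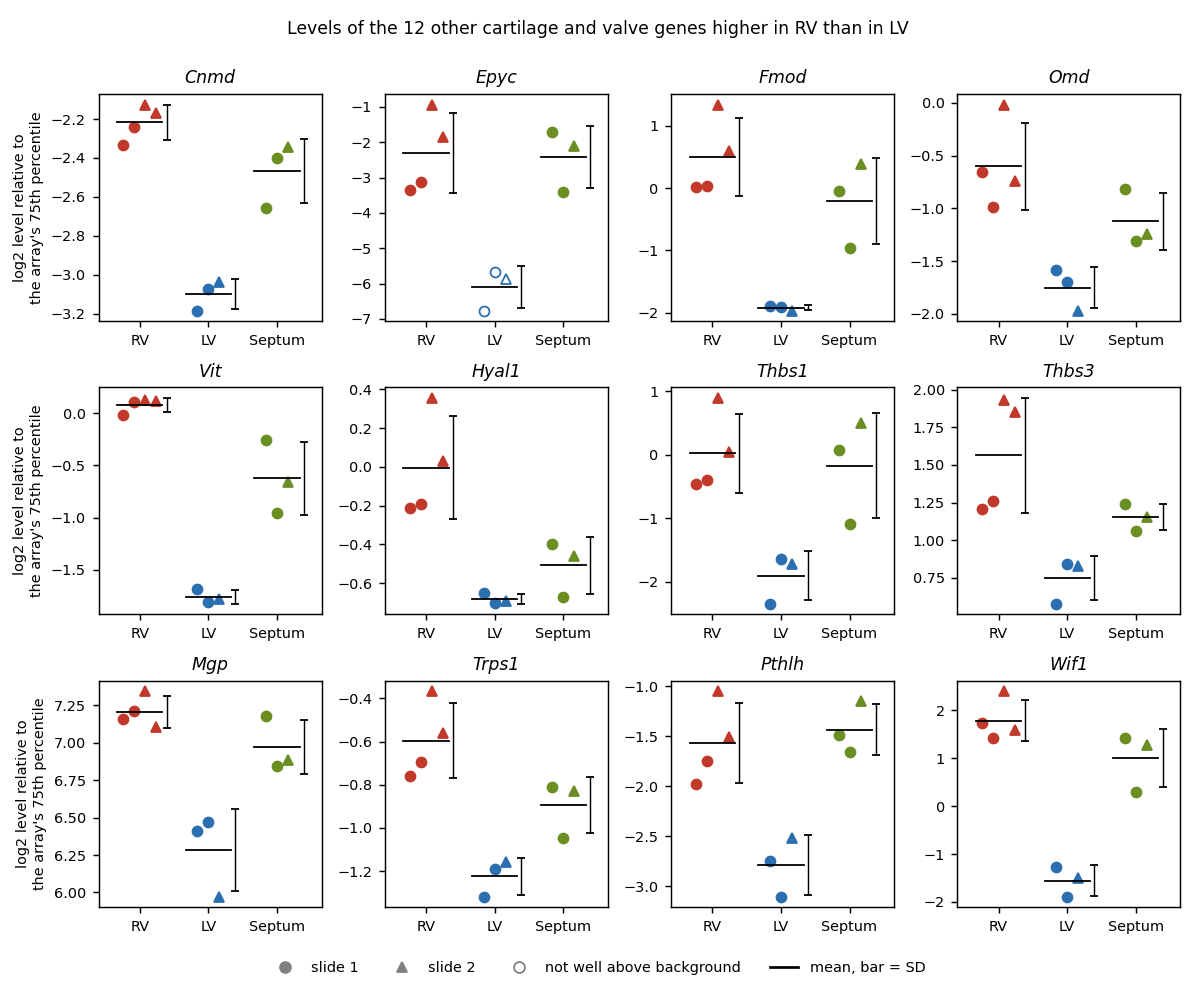
Log2 level relative to the 75th percentile of the array (vertical axis) of the 12 further genes with an adjusted p below 0.05 between RV and LV, by region, with circles for the first slide, triangles for the second and open symbols for a signal not well above background; lines are means and bars the SD. In all 12 every RV array lies above every LV array, and the Septum mean lies above the LV mean.

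Between Septum and LV, none of the 47 genes passed the test in limma, where none of the 30234 probes did either (0%). At an unadjusted p below 0.05, 15 of the 47 did, compared with 862 of the 30234 probes, and 36 of the 47 had a higher mean in the Septum, with a median difference of 0.24 against -0.0092 for all probes. The analysis of variance with Tukey's test also called none. When the number shared by replicates was a random block, 5 genes were called, Cnmd, Epyc, Pthlh, Vit and Wif1, each higher in the Septum, and with this replicate block as fixed none. Between RV and Septum, Vit was the only gene of the 47 called, 1.63-fold higher in the RV (adjusted p = 0.0403, limma), compared with 1.20% of all probes that were higher in the RV. The call was lost on leaving out any array but Septum array 1, although no RV array fell within the Septum range. With the fixed replicate block 2 genes were called, Vit and Nfatc1, both higher in the RV. No share of all probes is given for the fits with a block. At an unadjusted p below 0.05, 14 of the 47 passed, compared with 4249 of the 30234 probes.

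**Figure D5:**
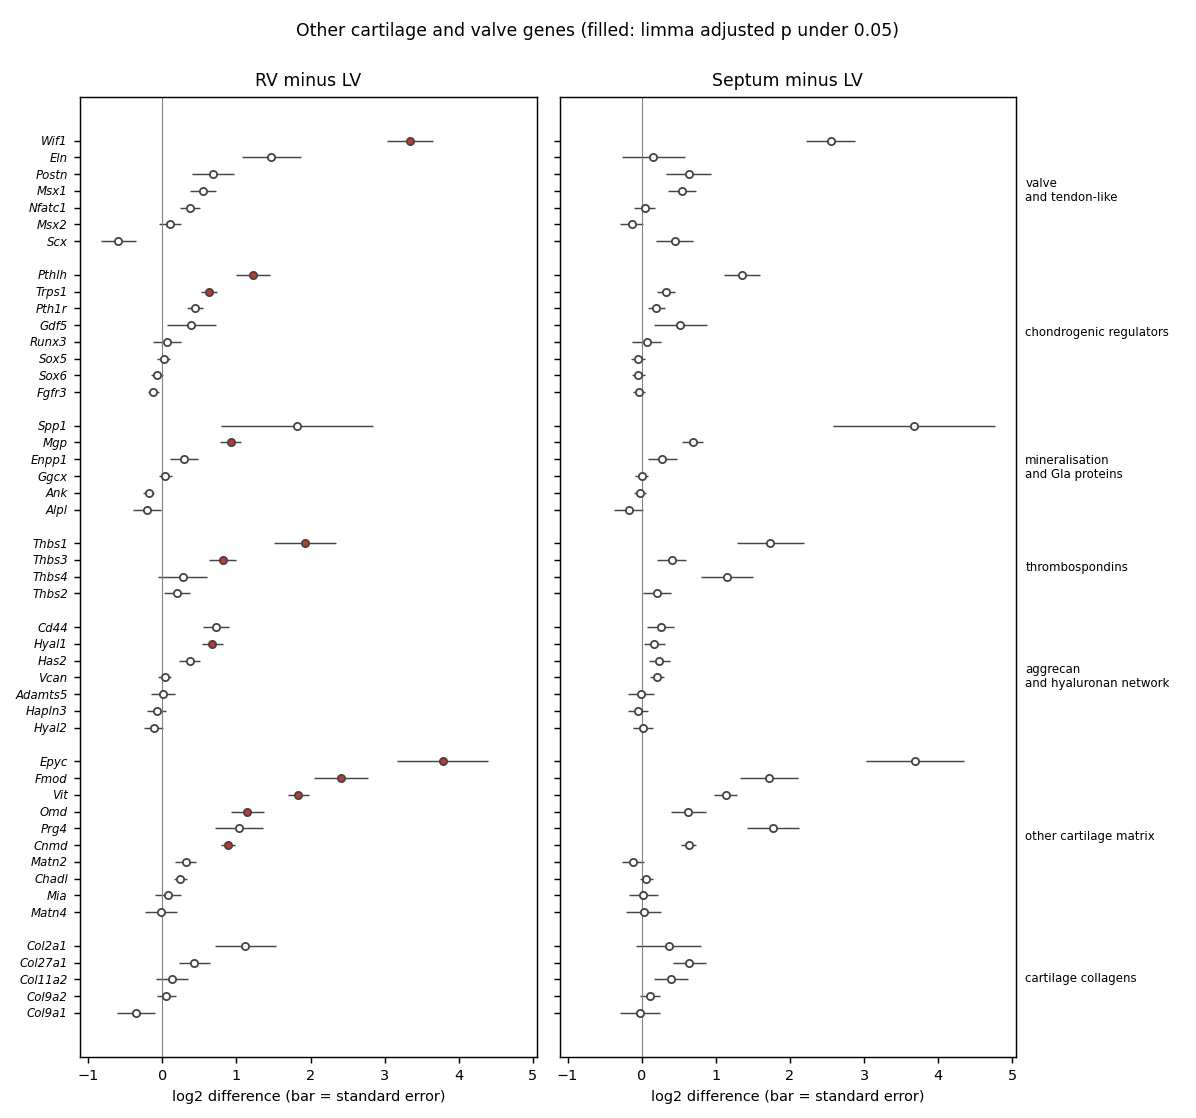
Log2 difference of RV minus LV (left) and Septum minus LV (right) for the 47 further genes tested (horizontal axis), grouped by list, with bars for the standard error and filled circles for an adjusted p below 0.05 in limma; the 2 panels share the LV arrays. The 12 filled circles of the left panel all lie above 0 and the right panel has none; the value of Epyc rests on an LV signal not well above background.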

How the data were processed

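Each of the 10 samples was hybridised in 1 colour to an Agilent mouse array and scanned with Feature Extraction 11.5.1.1. The deposited intensity of each spot is the processed signal, which the authors' scanner software had corrected for background, and a table of log2 values deposited by the authors came with the scans. After a constant was removed per array, 100.0% of the values in that table lay within 0.05 of the log2 processed signals, on a scale whose centring is the 75th percentile of each array. Per the file headers the arrays carry build mm9, so no coordinates of the probes are printed; probe names came through RefSeq accessions (GRCm38.p6), which named 32989 of 56605 probes.

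Control and outlier spots were removed, spots of a probe averaged, log2 taken and the 75th percentile subtracted. A mean per region was fitted over all 10 arrays with limma 3.58.1 (R 4.3.3), two-sided, with Benjamini-Hochberg adjustment over all probes tested, in place of the analysis of variance with Tukey's test of the methods, which served as an alternative. The fit was tested on simulated data. A gene with several probes was read by its brightest. The files held no mean signal for the normexp alternative (offset 50), so the median signal was used. The 10 arrays limit the precision.

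The members and lists were chosen with earlier results of these data known. Of the further genes, every one called in any comparison was named, and for likeness the 3 genes of highest Pearson's r, of which 1 is not reported here; other values of single genes were named after they were seen. Same-numbered arrays deviated from their region means together, with correlations of 0.36 to 0.64 over the 9 pairs. The numbers were therefore taken to pair the samples, but only in the alternatives with a replicate block. The main fit, which gave the printed SE and p-values, had no block and treats the arrays as independent. Number and slide go together, and RV array 4, which has no partner, correlated with LV array 3 (0.57) and Septum array 3 (0.58) more than RV array 3 did (0.43 and 0.44).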

Additional observations from a re-analysis of the deposited data

Results flagged for a closer look

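Vit was the only one of 39 probes and marker means checked for a single distant array among the 4 RV arrays that had one. RV array 1 had a log2 level of -0.021, below the other RV arrays, which lay between 0.10 and 0.12, so that its gap was 0.88 of the range of the group. The whole range is small beside the difference from the LV, and chance alone gives such a gap in about 1 in 20 groups. Groups of 3 arrays were not checked.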

How the results depend on the processing

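Of the differences of the cartilage-like genes recomputed under the alternatives, 630 moved by less than 1 SD between arrays and 12 moved by more. Of these 12, 8 came from normexp background correction, which compressed the low signals of Ucma, Cilp2 and the dimmer Sox9 probe without a change of sign (Ucma between RV and LV 2.02), 2 from the second slide alone (Cytl1) and 2 from the other Sox9 probe. Between RV and LV, 7 of the further genes were called with scaling by the median, 6 with no filter, 20 with slide as a fixed block, 21 with slide or the replicate block as random, 7 within the first slide, 5 within the second, 3 with Tukey's test and 5 to 12 on leaving out an array. With the replicate block as fixed, 16 were called. Between RV and Septum, 0 were called with scaling by the median, no filter, the second slide alone, only the arrays of both regions or Tukey's test, 2 with normexp, the first slide alone or the replicate block, 5 and 4 with slide as a fixed or random block, 8 with the replicate block as random and 0 to 1 on leaving out an array. Both genes called on the first slide, Scx and Spp1, were lower in the RV, as was 1 of the 2 with normexp. Spp1 passed the filter through the Septum alone, with 2 RV arrays well above background, so a lower RV level was in part built in. With slide as a block or a random replicate block, Scx was the gene lower in the RV. Between Septum and LV, 2 were called with slide as a fixed block, 5 with slide or the replicate block as random, and 0 to 2 on leaving out an array. For these settings no share of all probes is given, so the counts show only how the calls depend on the setting. None of the 12 genes called between RV and LV changed direction in that comparison. Of the cartilage-like genes, the RV and Septum difference changed sign under 4 alternatives for Comp, 3 for Cilp2, 12 for the brighter and 1 for the dimmer Sox9 probe, the RV and LV difference under 1 for Cilp and 11 for the brighter Sox9 probe, and the Septum and LV difference under 6 for the brighter Sox9 probe. Among the further genes named, in differences between RV and Septum that were not called, the sign changed for Epyc (-0.076 and -0.048 with slide as a fixed or random block, -0.68 on the first slide, -0.059 with the replicate block, -0.40 to 0.44 on leaving out an array), for Thbs1 (-0.033 on the second slide, -0.053 by another probe, -0.27 to 0.53 on leaving out an array) and for Pthlh (-0.31 to 0.0030 on leaving out an array). The causes were not tested. Acan and Hapln1 did not pass the filter and have no fitted alternatives here, for Ucma and Epyc the LV signal at background limits the difference to a bound, and for Cilp2 only 1 of 3 LV arrays was well above background.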
